A study of Mus musculus with 8 samples.

Results

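The transcription factor families that guide glial lineage decisions were followed at the RNA and at the ribosome from oligodendrocyte progenitor cells (OPCs) to oligodendrocytes. Members were taken by gene name: every row of the deposited table whose symbol belongs to the Sox, Olig, Nkx, Id, Hes, Hey, Ascl, Zeb, Tcf, Nfi, Klf, Egr, Pou, Pax, Lhx, Sall or Nfe2l families, and the single genes Myrf and Zfp488. This gave 80 members of 10987 listed transcripts, each with its own gene symbol, and they were split into 21 families or subfamilies. The rule itself used no measured value, but it was set with earlier results of these data known. The study sequenced ribosome footprints, which are the mRNA pieces that a ribosome shields from nuclease, and fragmented total RNA (RNA-seq) of the same cultures. The OPCs were derived from epiblast stem cells of the 129S/SvEv mouse strain and grown with 20 ng/mL bFGF and 20 ng/mL PDGFA, the mitogens that keep them dividing. For oligodendrocytes, OPCs were first passaged without bFGF and then differentiated for 3 days without either mitogen, in medium with noggin, IGF-1, cyclic AMP, NT3 and 40 ng/mL of the thyroid hormone T3. Each cell type had 2 cultures, and a culture gave 1 library of each kind, so that 8 libraries were used. No gene was deleted or added in either group. Plates of a cell type were pooled into a lysate, and some cells of the differentiated cultures remain undifferentiated, so each value is an average over a mixture.

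In the oligodendrocyte lineage, HMG-box factors of the SoxE group and the basic helix-loop-helix (bHLH) factors of the Olig group keep progenitors committed to the lineage. SoxE factors then switch on Myrf, a membrane-tethered factor that activates the myelin genes together with Sox10. Id proteins lack a DNA-binding region and hold E proteins, the partners of Olig factors, away from DNA, while Hes and Hey repressors carry the Notch signal that delays differentiation.

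Values are FPKM, fragments scaled to length and to the number of mapped reads. The length is the whole transcript for RNA-seq and the coding sequence (CDS) for footprints. Changes are log2 fold changes of FPKM + 0.1, oligodendrocytes against OPCs, with their standard error (SE). They were tested with limma wherever the mean over the libraries fitted reached 1 FPKM, and a change was called at a Benjamini-Hochberg adjusted p under 0.05 over all transcripts tested. "Higher" and "lower" below refer to oligodendrocytes. In bulk samples, fewer cells with a transcript and less of it per cell cannot be told apart. Labels do not say that the 2 cultures of a group began from separate derivations, so p-values measure the spread between these cultures, which may be partly technical.

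The estimated depth was 77.9 to 241 Mb aligned for RNA-seq and 93.1 to 249 Mb for footprints, which could be off by a factor of 2. The footprint library of the second oligodendrocyte culture was the shallowest of its kind, with 31.1% of all transcripts and 25 of 80 members listed at 0, against 14 to 23 members in the other footprint libraries. Oligodendrocyte markers fitted the labels: 7 markers had summed RNA-seq levels of 34.3 and 36.7 against 3697 and 3246 FPKM, and all 6 that were tested were higher. Markers of committed OPCs (3 of 3 tested) were higher too, with sums of 28.1 and 24.4 against 604 and 680 FPKM. OPC markers also rose, in 4 of 6 tested, with sums of 406 and 371 against 544 and 591 FPKM. Dividing-cell markers fell in 5 of 5 tested, from 391 and 527 to 122 and 139 FPKM, and neural progenitor markers in 3 of 3, from 909 and 836 to 174 and 171 FPKM. Most of the neural progenitor sum was Vim, at 778 and 719 against 155 and 151 FPKM. That list holds the members Sox1 and Pax6, and its genes Pax6 and Prom1 were not tested in RNA-seq. Of 6 astrocyte markers tested, 3 were higher and 1 lower, with sums of 380 and 364 against 1051 and 934 FPKM. Most of that difference was S100b, at 20.6 and 12.6 against 675 and 633 FPKM, and the other 5 summed to 360 and 352 against 377 and 301 FPKM. Gfap was at 0.155 and 0 in OPCs and at 14.2 and 2.11 FPKM in oligodendrocytes. Neuron markers summed to 132 and 118 against 186 and 200 FPKM, with 2 of 6 higher. Pluripotent cell markers stayed at or below a sum of 0.501 FPKM and microglia markers at or below 0.209 FPKM in every RNA-seq library, and no endothelial marker had a row. The part of these cell types in the changes of the members was not tested.

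Of the 80 members, 56 passed the minimum level in RNA-seq and 60 in footprints, and 17 passed it in neither. In RNA-seq, 30 of 56 members were called, 14 higher and 16 lower. Over all 8346 transcripts tested, 33.2% were called in RNA-seq, 13.0% higher and 20.2% lower, against 53.6%, 25% and 28.6% of the members. In footprints, 23 of 60 members were called, 11 higher and 12 lower (38.3%), where 23.6% of 8342 transcripts were called, 12.8% higher and 10.8% lower. Both readouts called 20 members, all of these in the same direction, 8 higher and 12 lower, of 53 tested in both, where 18.7% of all transcripts tested in both were called in both. A further 10 members were called in RNA-seq alone and 3 in footprints alone, although a difference between the readouts was not shown for any of them. The cultures of the cell types did not overlap in RNA-seq for 20 members that were higher and 23 that were lower in oligodendrocytes (35.7% and 41.1%), against 27.6% and 44.2% of all transcripts, and in footprints for 18 and 21 members (30% and 35%), against 31.8% and 37.9%. The median change of the members was -0.02 in RNA-seq and -0.09 in footprints, against -0.23 and -0.16 over all transcripts tested. A different scaling (median-ratio) moved the RNA-seq median of all transcripts to -0.05 and the share of all RNA-seq calls that are higher from 39.1% to 51.5%. Relative to the median of all transcripts, all 30 RNA-seq and all 23 footprint calls lay on the same side as the fitted change, by at least 0.45 and 0.67 on the log2 scale.

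The calls rest on 2 cultures a group, and this sets how firmly they can be read. Without the first or the second OPC culture, far fewer members were called in RNA-seq and none in footprints. The loss was general, since calls over all transcripts fell in the same way. Without the second oligodendrocyte culture, fewer members were called in both readouts, and again fewer of all transcripts. Leaving out the first oligodendrocyte culture gave fewer members called in RNA-seq and more in footprints. There, too, calls over all transcripts moved the same way. All these fits leave 1 sample in a group, so their counts are not given here. Myrf, Nfe2l3, Zfp488, Sox10, Sox8 and Nfib were the 6 members that kept their RNA-seq call under every left-out culture and every other setting tried. For every other RNA-seq call, leaving out at least 1 of the OPC cultures ended it. In an exact permutation test of a single gene, 2 cultures against 2 cannot go below a two-sided p of 0.333.

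**Figure D1:**
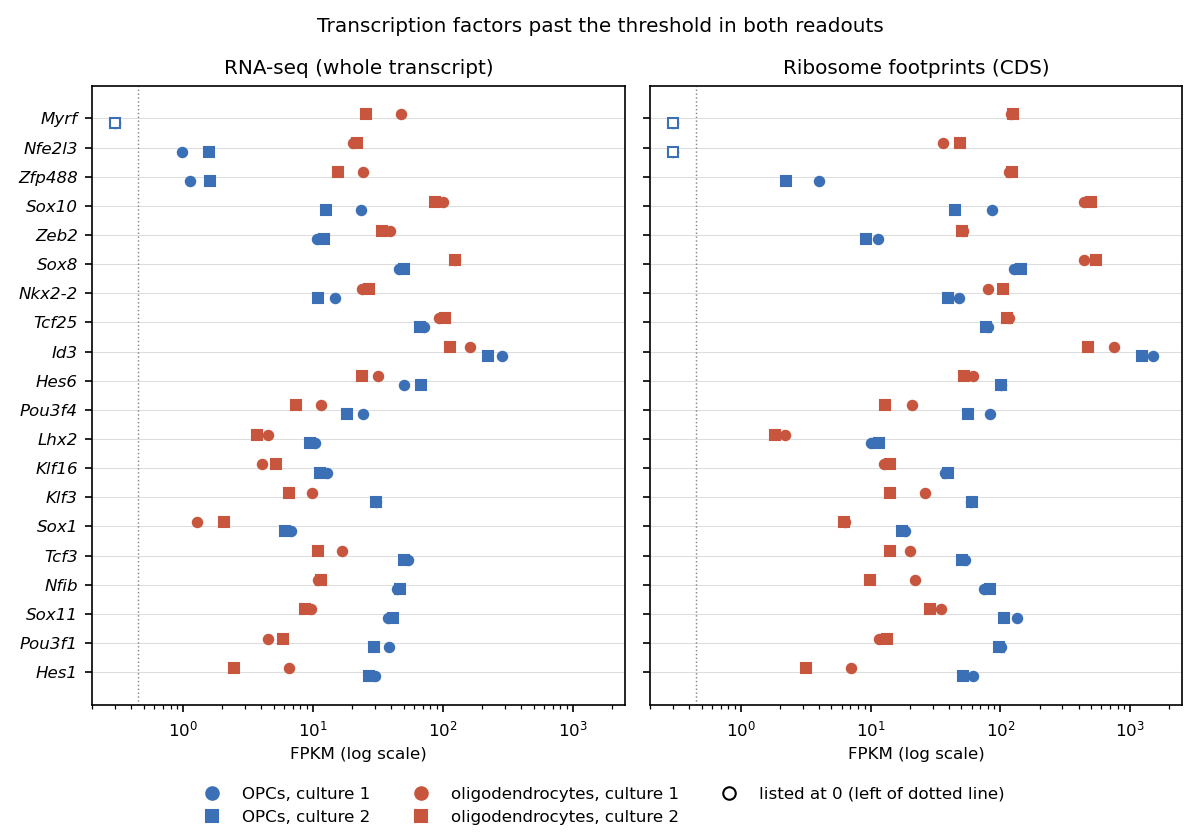
FPKM of the 20 members called in both readouts, on log axes, with RNA-seq on the left and footprints on the right. Each point is 1 library, blue for OPCs and red for oligodendrocytes, a circle for culture 1 and a square for culture 2, and open points are listed at 0. In each of these rows the cell types do not overlap, from Myrf, at 0 in OPCs, to Hes1, which fell from 30.1 and 27.0 to 6.48 and 2.47 FPKM in RNA-seq.

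Myrf, Zfp488 and Zeb2 rose in both readouts. Myrf, which activates the myelin genes (chr19:10210385-10240604 in GRCm38, minus strand, 26 exons) was listed at 0 in all 4 OPC libraries. In oligodendrocytes it was at 47.5 and 25.4 FPKM in RNA-seq and at 120 and 126 FPKM in footprints. Of all transcripts, 680 were listed at 0 in the 4 OPC libraries, and 7 of these, Myrf among them, reached 10 FPKM in each oligodendrocyte library. Both changes of Myrf were called (adjusted p = 0.000657 and 0.00398, limma), and no fold is given against a group at 0.

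Zfp488 (chr14:33967070-33978764, minus strand, 2 exons), a zinc finger co-regulator of Olig factors, was at 1.12 and 1.61 FPKM in OPC RNA-seq and at 24.4 and 15.7 FPKM in oligodendrocytes. Its footprints were at 4.01 and 2.25 FPKM in OPCs and at 115 and 124 FPKM in oligodendrocytes. The groups were far apart in both readouts, with a log2 change of 3.76 (SE 0.37) in RNA-seq and 5.27 (SE 0.35) in footprints (adjusted p = 0.00205 and 0.00540). Zeb2, a repressor that blocks BMP-activated Smad factors and is needed for myelination, was at 10.7 and 12.2 against 38.9 and 34.1 FPKM in RNA-seq and at 11.5 and 9.28 against 51.9 and 50.4 FPKM in footprints. It rose by 1.66 (SE 0.20) and 2.30 (SE 0.22) on the log2 scale (adjusted p = 0.00319 and 0.00849). Exons of Zeb2 overlap Zeb2os on the opposite strand and Mir5129 on its own, and strand was not named in the counting.

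The SoxE group moved unequally. Sox10 (chr15:79154913-79164490, minus strand, 4 exons), which is expressed through the whole lineage and activates myelin genes, was at 23.4 and 12.5 FPKM in OPC RNA-seq and at 101 and 87.6 FPKM in oligodendrocytes. Its footprints were at 86.3 and 44.3 against 443 and 500 FPKM, so that both readouts separated the cell types although the OPC cultures differed almost as 2 to 1. Sox10 rose by 2.45 (SE 0.31) and 2.93 (SE 0.35) on the log2 scale (adjusted p = 0.00397 and 0.0132). Sox8, a close relative with overlapping function, was at 46.2 and 50.0 against 123.4 and 123.2 FPKM in RNA-seq and at 128 and 145 against 442 and 541 FPKM in footprints. Its rise was 1.36 (SE 0.15) and 1.84 (SE 0.15) (adjusted p = 0.00254 and 0.00728), and its exons overlap 2810468N07Rik on the opposite strand. Sox9, which specifies glia early and persists in astrocytes, was at 51.8 and 32.8 against 48.5 and 51.5 FPKM in RNA-seq and at 183 and 127 against 155 and 132 FPKM in footprints. The Sox9 cultures overlapped in both readouts, and no change passed the threshold (log2 change 0.28, SE 0.25, adjusted p = 0.419, and -0.09, SE 0.22, adjusted p = 0.786). As a share of the summed SoxE level, a ratio within each library that no scaling of that library can alter, Sox9 made up 42.7% and 34.4% in OPC RNA-seq and 17.8% and 19.7% in oligodendrocytes. The share of Sox10 went from 19.3% and 13.1% to 36.9% and 33.4%. In footprints of oligodendrocytes Sox10 and Sox8 had nearly equal shares, 42.6% and 42.5% in the first culture and 42.6% and 46.1% in the second.

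**Figure D2:**
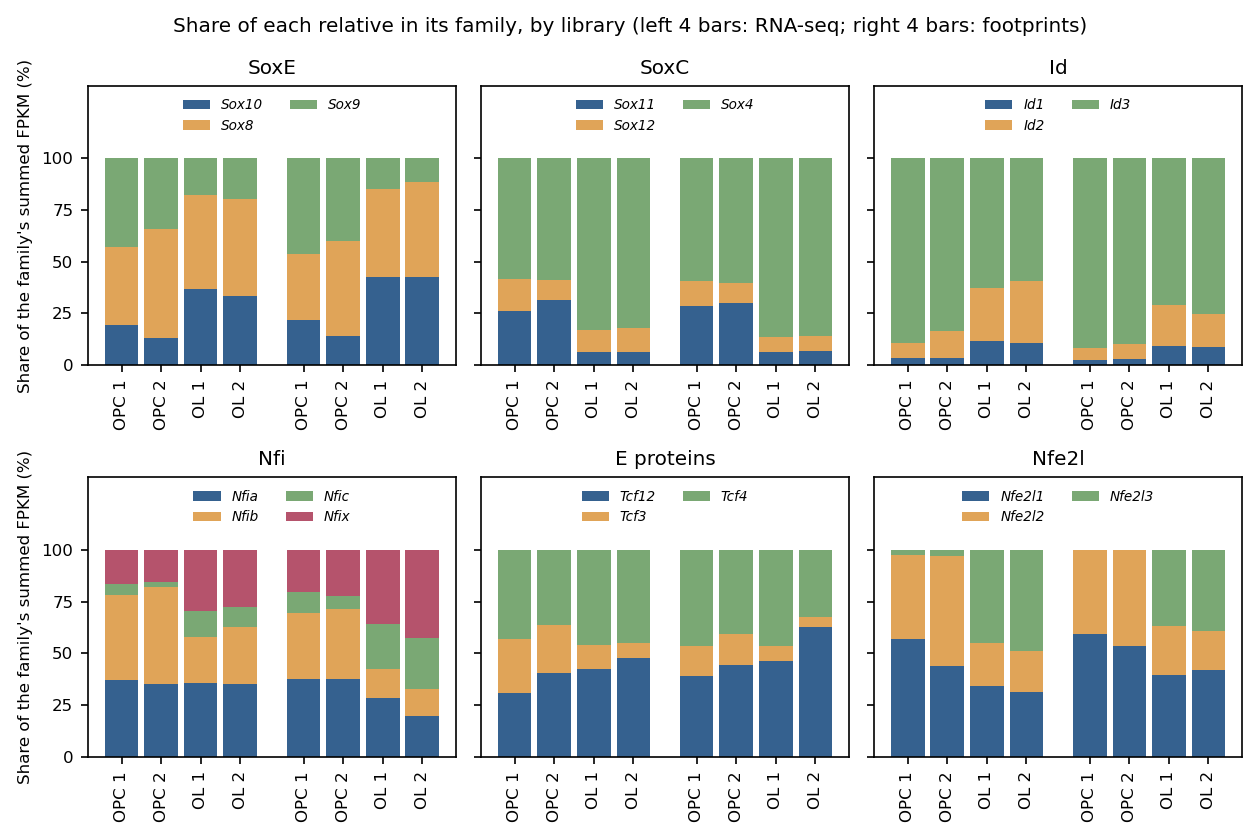
Share of each relative in the summed FPKM of the relatives shown (y axis, %), by library. Id4 was not analysed and is not part of the Id sum. In each panel the left 4 bars are RNA-seq and the right 4 are footprints. Their order is OPC 1, OPC 2, oligodendrocyte (OL) 1, OL 2, and each bar adds up to 100%. Nfe2l3 went from 2.34% and 3.03% of the Nfe2l level to 45% and 48.9% in RNA-seq, and Sox11 from 26.1% and 31.7% of the SoxC level to 6.46% and 6.34%.

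Olig1, a bHLH factor of the whole lineage, was the most abundant member in every footprint library, at 1971 and 1459 against 2149 and 1543 FPKM. In RNA-seq it was at 693 and 571 against 735 and 686 FPKM, and it did not pass the threshold in either readout (log2 change 0.17, SE 0.17, adjusted p = 0.469, and 0.10, SE 0.25, adjusted p = 0.784). Its share of the footprint level of all members was 26.1% to 29.4% in the 4 libraries. Nkx2-2, a homeodomain repressor that promotes the step to differentiation, was at 14.9 and 10.9 against 23.8 and 26.8 FPKM in RNA-seq and at 48.0 and 39.2 against 80.2 and 104 FPKM in footprints. It rose by 0.98 (SE 0.23, adjusted p = 0.0247) and 1.07 (SE 0.21, adjusted p = 0.0337), and the footprint call was lost with the replicate number as a block (adjusted p = 0.0558) and with median-ratio scaling (adjusted p = 0.0580), in a range of 0.0260 to 0.212 over 10 alternatives. Nkx6-1 stayed below 5 FPKM in RNA-seq without a call. Nkx6-2, a homeodomain factor of myelinating cells, was at 1.81 and 0 in OPCs and at 5.81 and 0 FPKM in oligodendrocytes, so that its cultures differed more than its cell types. Exons of Olig1, Nkx2-2 and Nkx6-2 overlap a gene on the opposite strand.

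Other Sox groups held relatives that went in opposite directions. In SoxB, Sox2, which marks neural stem cells and stays on in OPCs, was at 146 and 131 against 231 and 249 FPKM in RNA-seq and at 362 and 228 against 702 and 526 FPKM in footprints. It rose in RNA-seq (0.79, SE 0.15, adjusted p = 0.0125), while the footprint change (1.08, SE 0.29) missed the threshold (adjusted p = 0.0702) and passed it with the replicate block (adjusted p = 0.0121, range over 10 alternatives 0.0121 to 0.285). Sox1, a marker of neural progenitors, was at 6.74 and 6.09 against 1.27 and 2.05 FPKM in RNA-seq and at 18.5 and 17.4 against 6.38 and 6.22 FPKM in footprints. Sox1 fell, with log2 changes of -1.92 (SE 0.41) and -1.5 (SE 0.30) (adjusted p = 0.0185 and 0.0358), and the footprint call was lost with the block (adjusted p = 0.0820, range 0.0268 to 0.272). The level of Sox2 over that of Sox1 was 21.6 and 21.5 in OPC RNA-seq and 181 and 121 in oligodendrocytes. Sox3, a close relative of both, rose in RNA-seq by 0.64 (SE 0.17, adjusted p = 0.0376) and had a footprint change of 0.08 (adjusted p = 0.863). Sox21, a repressor of the group, rose in footprints, from 44.5 and 33.8 to 90.9 and 75 FPKM (1.09, SE 0.21, adjusted p = 0.0341), and its RNA-seq change of 0.68 (adjusted p = 0.0526) passed with the block (adjusted p = 0.0441, range 0.0308 to 0.209).

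In SoxC, which acts in immature neural cells, Sox11 was at 37.9 and 40.9 against 9.68 and 8.70 FPKM in RNA-seq and at 133 and 107 against 35.1 and 28.7 FPKM in footprints. Sox11 fell, with log2 changes of -2.09 (SE 0.19) and -1.91 (SE 0.19) (adjusted p = 0.00156 and 0.00975). Sox4 was at 84.9 and 75.9 against 124 and 113 FPKM in RNA-seq and at 273 and 216 against 462 and 359 FPKM in footprints, so every oligodendrocyte library was above every OPC library. Its rise in RNA-seq was 0.56 (SE 0.15, adjusted p = 0.0390), and its footprint change was 0.74 (SE 0.20, adjusted p = 0.0690, and 0.0148 with the block, range 0.0148 to 0.329). Sox12 was at 22.3 and 12.2 against 15.9 and 16 FPKM in RNA-seq and did not pass the threshold in either readout (-0.05 and -0.36), and its RNA-seq value was 0.38 without the first OPC culture, -0.48 without the second and 0.13 with median-ratio scaling. The level of Sox4 over Sox11 was 2.24 and 1.86 in OPC RNA-seq and 12.8 and 12.9 in oligodendrocytes, and in footprints it was 2.05 and 2.02 against 13.1 and 12.5. The 13 pairs of relatives were chosen after the values were seen. The summed SoxC level was 145 and 129 FPKM in OPC RNA-seq and 150 and 137 FPKM in oligodendrocytes. In SoxD, whose members hold back SoxE activity in OPCs, Sox6 rose in RNA-seq, from 20.0 and 19.7 to 33.4 and 32.1 FPKM (0.72, SE 0.17, adjusted p = 0.0249), with a footprint change of 0.74 (adjusted p = 0.0954). Sox5 was at 5.54 and 4.63 against 3.55 and 2.69 FPKM in RNA-seq without a call (-0.69, adjusted p = 0.183), and Sox5os1 overlaps it on the opposite strand.

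Among the inhibitors of bHLH factors, Id3 was lower while Id1 and Id2 were higher at the RNA. Id3 (chr4:136143497-136145392, plus strand) was at 285 and 220 against 161 and 113 FPKM in RNA-seq and at 1498 and 1227 against 742 and 475 FPKM in footprints. It fell, with log2 changes of -0.90 (SE 0.23, adjusted p = 0.0323) and -1.19 (SE 0.27, adjusted p = 0.0468), and the RNA-seq call was lost with median-ratio scaling (adjusted p = 0.0549, range 0.00230 to 0.194 over 10 alternatives). Id1 was at 11.5 and 8.61 against 30.6 and 20.3 FPKM in RNA-seq and rose by 1.31 (SE 0.29, adjusted p = 0.0197). Id2 was at 22.3 and 35.5 against 65.8 and 56.5 FPKM and rose by 1.11 (SE 0.26, adjusted p = 0.0234). Neither was called in footprints, where Id1 was at 39.2 and 42.0 against 98.0 and 54.1 FPKM and Id2 at 96.3 and 97.7 against 210 and 99.8 FPKM, the second oligodendrocyte culture lying close to the OPCs. Of the summed RNA-seq level of Id1, Id2 and Id3, Id3 still made up 62.5% and 59.4% in oligodendrocytes, after 89.4% and 83.3% in OPCs. Id4 was not analysed, so these are not shares of the whole Id family.

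The Hes and Hey repressors had 2 called members of 6 tested in RNA-seq, both lower. Hes1 (chr16:30065340-30067796, plus strand, 4 exons), a Notch effector, was at 30.1 and 27.0 against 6.48 and 2.47 FPKM in RNA-seq and at 61.0 and 51.1 against 7.05 and 3.18 FPKM in footprints. Its log2 change of -2.80 (SE 0.46) in RNA-seq was the largest fall among the members called there, and the footprint change was -3.53 (SE 0.46) (adjusted p = 0.00806 and 0.0153). Hes6, which antagonizes Hes1, was at 50.1 and 67.2 against 31.7 and 23.9 FPKM and fell, with log2 changes of -1.07 (SE 0.23, adjusted p = 0.0191) in RNA-seq and -0.83 (SE 0.14, adjusted p = 0.0241) in footprints. Hes5, the other main Notch effector of OPCs, was at 42.5 and 16.7 against 66.0 and 49.7 FPKM in RNA-seq. It was not called there (1.10, SE 0.44, adjusted p = 0.107) except with the replicate block (adjusted p = 0.0102, range 0.0102 to 0.339). Hes5 footprints followed the culture number, with 60.3 and 68.2 FPKM in the first cultures of both cell types and 12.1 and 11.6 FPKM in the second. Hey1 was at 18 to 23.3 FPKM in all 4 RNA-seq libraries and was not called in either readout.

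Of the E proteins, which pair with Olig and other bHLH factors, Tcf3 fell in both readouts and Tcf4 and Tcf12 were not called. Tcf3 (chr10:80409514-80433647, minus strand, 19 exons) was at 53.7 and 50.2 against 16.8 and 10.9 FPKM in RNA-seq and at 53.4 and 50.5 against 20.2 and 14.1 FPKM in footprints. It fell, with log2 changes of -1.93 (SE 0.25) and -1.62 (SE 0.25) (adjusted p = 0.00408 and 0.0206). Tcf4 was at 88.6 and 78.3 against 66.4 and 68.2 FPKM in RNA-seq and was not called (-0.31, adjusted p = 0.172), nor was Tcf12 at 63.1 and 87.3 against 60.7 and 72.2 FPKM (-0.17, adjusted p = 0.574). The share of Tcf3 in the E protein level was 26.1% and 23.3% in OPC RNA-seq and 11.7% and 7.22% in oligodendrocytes. Of the Tcf members that act with beta-catenin, Tcf7l1 rose in footprints, from 4.63 and 3.63 to 20.9 and 14.0 FPKM (2.04, SE 0.41, adjusted p = 0.0374). That call was lost with the block (adjusted p = 0.0608, range 0.0260 to 0.230), whereas its RNA-seq change of 1.51 (adjusted p = 0.0882) then passed (adjusted p = 0.0496, range 0.0496 to 0.345 over 9 alternatives). Gm15401 overlaps Tcf7l1 on the opposite strand. Tcf25, whose protein acts in ribosome quality control rather than as a classical Tcf factor, rose by 0.51 (SE 0.15, adjusted p = 0.0487) and 0.53 (SE 0.11, adjusted p = 0.0405), the smallest called changes of any member. Its footprint call was lost with the block (adjusted p = 0.0578) and with median-ratio scaling (adjusted p = 0.0629, range 0.0358 to 0.191). Tcf19, a cell cycle linked gene, fell in RNA-seq, from 21.4 and 15.5 to 6.28 and 8.69 FPKM (-1.29, SE 0.29, adjusted p = 0.0208). Its footprints were at 28.2 and 20.1 against 5.81 and 1.77 FPKM, a change of -2.85 (SE 0.69) that missed the threshold (adjusted p = 0.0551) and passed it with the block (adjusted p = 0.0446, range 0.0150 to 0.337).

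**Figure D3:**
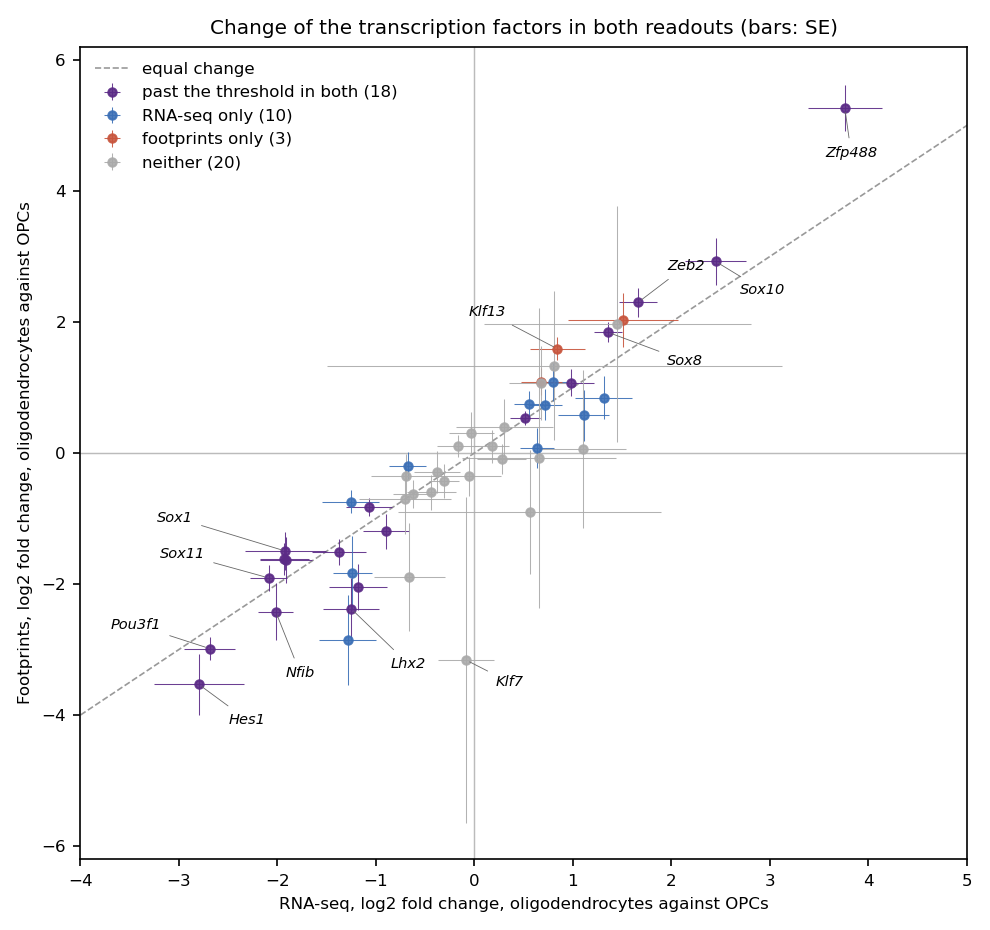
Log2 fold change in RNA-seq (x axis) against that in footprints (y axis), oligodendrocytes against OPCs, for the 51 members tested in both readouts apart from Myrf and Nfe2l3, which have a group at 0. Bars are SEs, colors give the readouts in which a member was called, and the dashed line marks equal change: the 18 members called in both lie in the lower left or upper right, with Zfp488 at 3.76 and 5.27, and Klf7, with footprints listed at 0 in 1 library, lies lowest of the members not called.

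Nuclear factor I genes start gliogenesis, and 2 of the 4 fell in RNA-seq. Nfib (chr4:82290176-82505308, minus strand, 9 exons) was at 44.2 and 46.9 against 10.9 and 11.5 FPKM in RNA-seq and at 74.4 and 83.8 against 21.8 and 9.85 FPKM in footprints. It fell, with log2 changes of -2.02 (SE 0.18) and -2.42 (SE 0.43) (adjusted p = 0.00143 and 0.0280). Nfia was at 40.1 and 35.1 against 17.4 and 14.3 FPKM in RNA-seq and fell, with a log2 change of -1.24 (SE 0.20, adjusted p = 0.00750). Its footprints were at 86.8 and 93.2 against 43.3 and 14.5 FPKM (-1.84, adjusted p = 0.0923), with the 2 oligodendrocyte cultures far apart. Nfix, at 18 and 15.4 against 14.4 and 11.3 FPKM, and Nfic were not called, and Nfix and Nfib were at similar RNA-seq levels in oligodendrocytes, with ratios of 1.33 and 0.989 after 0.407 and 0.329 in OPCs. Nfia, Nfic and Nfix overlap genes on the opposite strand.

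Pou, Lhx and Klf members that were called moved downward, apart from Klf13. Pou3f1 (chr4:124656807-124660655, plus strand, single exon), a POU factor best known from promyelinating Schwann cells, was at 38.2 and 29.4 against 4.49 and 5.82 FPKM in RNA-seq and at 102 and 96.9 against 11.6 and 13.4 FPKM in footprints. It fell, with log2 changes of -2.69 (SE 0.26) and -2.98 (SE 0.17) (adjusted p = 0.00180 and 0.00417). Gm2164 overlaps it on the opposite strand. Pou3f4 was at 24.1 and 18.3 against 11.4 and 7.37 FPKM and fell, with log2 changes of -1.18 (SE 0.30, adjusted p = 0.0295) in RNA-seq and -2.05 (SE 0.35, adjusted p = 0.0251) in footprints. Pou3f2 and Pou3f3, relatives with similar neural roles, had RNA-seq changes of -0.44 and -0.62 and no call, and that of Pou3f3 passed with the block (adjusted p = 0.0482) and with a minimum mean of 5 FPKM (adjusted p = 0.0481), in a range of 0.0481 to 0.242. Lhx2, a LIM homeodomain factor of neural progenitors, was at 10.3 and 9.50 against 4.54 and 3.69 FPKM in RNA-seq and at 10.0 and 11.7 against 2.18 and 1.83 FPKM in footprints. It fell, with log2 changes of -1.25 (SE 0.28, adjusted p = 0.0219) and -2.38 (SE 0.47, adjusted p = 0.0365), and the footprint call was lost with the block (adjusted p = 0.0866, range 0.0195 to 0.304).

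Of the 10 Krüppel-like factors listed, 6 were tested in RNA-seq and 8 in footprints. Klf3, a transcriptional repressor, was at 30.3 and 30.4 against 9.85 and 6.47 FPKM in RNA-seq and fell, with log2 changes of -1.91 (SE 0.26, adjusted p = 0.00486) in RNA-seq and -1.64 (SE 0.35, adjusted p = 0.0424) in footprints. Klf16 was at 12.7 and 11.3 against 4.02 and 5.18 FPKM and fell, with log2 changes of -1.38 (SE 0.28, adjusted p = 0.0155) in RNA-seq and -1.51 (SE 0.20, adjusted p = 0.0155) in footprints. Klf13, a factor of the thyroid hormone responsive Klf subgroup, rose in footprints, from 45.6 and 39.3 to 142 and 115 FPKM (1.59, SE 0.17, adjusted p = 0.0108). In RNA-seq Klf13 was at 14.7 and 12.9 against 31.5 and 19.5 FPKM (0.84, SE 0.28, adjusted p = 0.0643), and passed with the block (adjusted p = 0.0247) and with median-ratio scaling (adjusted p = 0.0287), in a range of 0.0247 to 0.295. Klf7 was at 5.34 to 6.06 FPKM in all 4 RNA-seq libraries, while its footprints were at 8.48 and 11.4 against 12.2 and 0 FPKM, the zero being in the shallowest footprint library. Klf2, Klf8, Klf12 and Klf15 were tested in at least 1 readout and not called, and Klf4 and Klf14 were below the minimum.

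The Nfe2l factors, cap'n'collar proteins that serve stress and proteasome genes, differed in direction in RNA-seq, where Nfe2l3 rose and Nfe2l1 and Nfe2l2 fell. Nfe2l3 (chr6:51432670-51458768, plus strand, 4 exons) was at 0.985 and 1.57 FPKM in OPC RNA-seq and at 20.2 and 21.6 FPKM in oligodendrocytes, a rise of 3.96 (SE 0.35, adjusted p = 0.00139). Its footprints were listed at 0 in both OPC cultures and at 36.1 and 48.5 FPKM in oligodendrocytes (adjusted p = 0.00708). Among the 601 transcripts with 0.5 to 2 FPKM in both OPC RNA-seq libraries, 80 (13.3%) had footprints at 0 in both OPC cultures. Nfe2l2, the main regulator of the oxidative stress response, was at 17.1 and 27.8 against 9.44 and 8.71 FPKM in RNA-seq and fell, with a log2 change of -1.26 (SE 0.29, adjusted p = 0.0227), and its footprints were at 36.8 and 42.1 against 23.6 and 23.3 FPKM (-0.74, SE 0.18, adjusted p = 0.0526). Nfe2l1, which drives proteasome genes, fell in RNA-seq, from 24.1 and 22.7 to 15.3 and 13.9 FPKM (-0.68, SE 0.19, adjusted p = 0.0415, and 0.0839 with median-ratio scaling, in a range of 0.0341 to 0.180). In footprints Nfe2l1 was at 54.1 and 48.8 against 38.8 and 52.1 FPKM and was not called. In footprints of oligodendrocytes, Nfe2l1 still had the larger share of the family level (39.4% and 42.1%), ahead of Nfe2l3 (36.6% and 39.2%). The ratio of Nfe2l3 to Nfe2l2 in RNA-seq was 0.0576 and 0.0567 in OPCs and 2.14 and 2.48 in oligodendrocytes.

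Egr members and the remaining families gave no call. Egr1, an immediate early gene, was at 3.07 and 33.4 FPKM in OPC RNA-seq and at 5.39 and 42.0 FPKM in oligodendrocytes, so that its level followed the culture number rather than the cell type (log2 change 0.56, SE 1.33, adjusted p = 0.767). No Pax, Sall or SoxF, G and H member passed the minimum in RNA-seq, and among these Pax9 was tested in footprints without a call. Ascl4 was at 6.08 FPKM in the second oligodendrocyte footprint library and at most at 0.618 FPKM in the other 7 libraries. Pou4f1, a POU factor of sensory neurons, had footprints at 0.211 and 0.842 against 7.34 and 6.46 FPKM, without overlap, and missed the threshold (3.69, adjusted p = 0.0563). Hey2, Heyl, Sox13, Pou2f1, Pou6f1 and Egr2 were tested in at least 1 readout without a call, at no more than 7.41 FPKM in any library. The 17 members below the minimum in both readouts included Egr4, Klf4, Klf14, Lhx1, Lhx4, Nkx3-2, Pax5, Pax6, Pax8, Pou2f2, Pou5f2, Sall4, Sox14, Sox30, Tcf7 and Tcf15, and none of the 17 exceeded 2.97 FPKM in a library. The central regulators Olig2, Tcf7l2, Id4 and Klf9 were not analysed here. By family, 18 of 21 had a member tested in RNA-seq: 5 held both higher and lower calls (SoxB, SoxC, Id, Nfe2l and the mixed group of Tcf19 and Tcf25), 4 held higher calls alone and 6 lower calls alone. In footprints, 19 of 21 had a member tested: 2 held calls in both directions (SoxB and Klf), 6 higher calls alone and 7 lower calls alone.

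Genes that surround these factors were taken from lists, which were also set with earlier results of these data known. Of 13 tested RNA-seq transcripts from a list of myelin genes, the textbook targets of Myrf and Sox10, 12 were higher and none lower, with a median change of 6.18. Among other lineage regulators, 4 of 18 were higher (Myt1, St18, Thra and Zfp536) and 4 lower (Etv4, Etv5, Hdac2 and Hmga2). Thra, the receptor of the T3 in the medium, was at 52.1 and 37.7 against 148 and 122 FPKM, and rose by 1.6 (adjusted p = 0.00453). Of 13 inputs to Hes and Id genes from the Notch and BMP pathways, Smad7, an inhibitor of BMP and TGF-beta signals, was higher (1.23 and 0.551 against 16.2 and 11.1 FPKM) and the Notch ligand Jag1 was lower (10.9 and 11.4 against 4.61 and 2.28 FPKM), and 11 did not pass. No call was made in RNA-seq among 10 immediate early genes besides Egr and Klf. Of 7 Nfe2l2 targets, Slc7a11, a cystine transporter, was higher and Gclm, a subunit of glutathione synthesis, lower. Among the same lists, the footprint calls were 13 of 15 higher for myelin genes, 3 higher and 2 lower of 18 for other regulators, 1 higher of 13 for Notch and BMP inputs, none of 8 for immediate early genes and 1 lower of 7 for Nfe2l2 targets.

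Ribosome density (RD), footprint FPKM over RNA-seq FPKM in the same culture, compares how densely ribosomes occupy the coding sequences. The median RD of the members was 2.49 and 2.07 in the 2 OPC cultures and 2.50 and 2.25 in the oligodendrocyte cultures, against 1.72 and 1.77, then 2.02 and 1.95, over all transcripts (50 to 53 members with a value). Since RD was taken on different lengths for the 2 kinds of library, its level is read only as an order within a culture. Id3 was among the densest members in every culture (5.25, 5.57, 4.61 and 4.22), as was Nfic (4.17, 5.68, 5.55 and 4.77), while Tcf25 (1.12, 1.17, 1.25 and 1.08) and Tcf3 (0.994, 1.00, 1.20 and 1.29) lay low. No member of 53 tested was called for a change of RD, tested as the footprint change less the RNA-seq change (limma, 3 with an unadjusted p under 0.05). Of all 8056 transcripts tested, 1 was called, 0.0124%. The SE of the RD change had a median of 0.47 over the 53 members (0.16 to 3.19), so the lack of a call does not show that RD was alike in both cell types. Without the trend of variance 1 member was called, Nfe2l3, among 14 of 8056 transcripts (0.174%). Members were also called without the first oligodendrocyte culture, where calls rose over all transcripts too.

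The 3 members with an unadjusted p under 0.05 were all genes whose RNA rose. Zfp488 had an RD of 3.57 and 1.39 in OPCs and 4.74 and 7.90 in oligodendrocytes (log2 change 1.5, SE 0.56, adjusted p = 0.875). Sox8 had 2.76 and 2.90 against 3.58 and 4.39 (0.49, SE 0.19, adjusted p = 0.875), with no overlap between the cell types. Nfe2l3 had footprints at 0 in OPCs and an RD of 1.78 and 2.24 in oligodendrocytes (adjusted p = 0.214). Lhx2, at 0.975 and 1.23 against 0.481 and 0.496, and Tcf19, at 1.32 and 1.3 against 0.925 and 0.203, had the lowest RD of all members in 1 oligodendrocyte culture each.

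**Figure D4:**
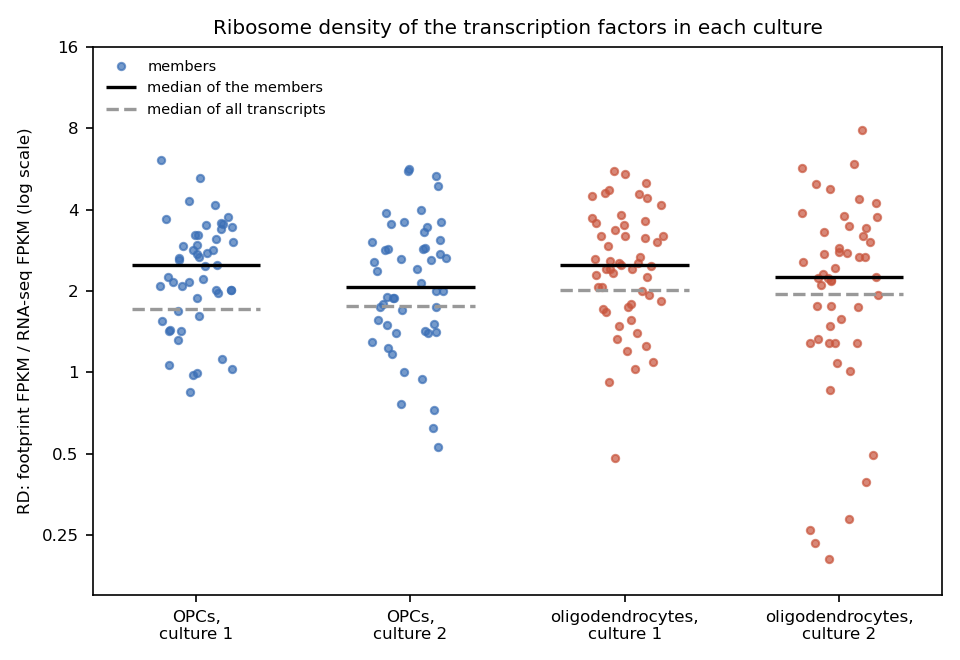
RD (footprint FPKM over RNA-seq FPKM, log axis) of the members in each of the 4 cultures, a point per member, with black lines at the members' medians and dashed gray lines at the medians of all transcripts. The black line lies above the gray one in each culture, for example at 2.49 against 1.72 in the first OPC culture, and the lowest points are in the second oligodendrocyte culture, down to 0.203.

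The members share features that the choice by name did not use. Of the 80, 15 (18.8%) are encoded by a single exon, against 6.36% of all listed transcripts, and their median exon number was 4 against 8. Their coding sequences had a median GC content of 60.1%, against 53.1%, and a median length of 1196 bases, against 1374. The share of UUU among phenylalanine codons had a median of 30% in members and 42.9% in all transcripts, and the share of AAA among lysine codons 23.5% and 36.8%. The 14 members higher in RNA-seq and the 16 lower had GC medians of 60.9% and 60.9%, UUU medians of 28.6% and 31%, and AAA medians of 28.8% and 20.7%.

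Promoters in RefSeq (GRCm38.p6, from 250 bases before to 50 after a start) were matched to 48 members whose listed transcript begins within 200 bases of that start. They are shown for the 2 matched members with the largest rise and the 2 with the largest fall in RNA-seq among those called in both readouts, since these are the regulatory sequences of the clearest changes. Capitals mark 2 motifs on either strand: CANNTG, the E-box that bHLH factors and Zeb factors bind, and ACAAAG, a core recognized by Sox and Tcf/LEF proteins. Each is read 5′ to 3′ on the strand of its gene: Nfe2l3 at chr6:51432419-51432718 (plus), Zfp488 at chr14:33978715-33979014 (minus), Sox11 at chr12:27342669-27342968 (minus) and Tcf3 at chr10:80433586-80433885 (minus).
Nfe2l3: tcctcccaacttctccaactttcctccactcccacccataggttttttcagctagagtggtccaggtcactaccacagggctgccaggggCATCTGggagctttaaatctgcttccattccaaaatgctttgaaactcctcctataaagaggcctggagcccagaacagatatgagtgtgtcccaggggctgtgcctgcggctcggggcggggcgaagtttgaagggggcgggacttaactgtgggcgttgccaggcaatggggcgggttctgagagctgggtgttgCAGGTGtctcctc
Zfp488: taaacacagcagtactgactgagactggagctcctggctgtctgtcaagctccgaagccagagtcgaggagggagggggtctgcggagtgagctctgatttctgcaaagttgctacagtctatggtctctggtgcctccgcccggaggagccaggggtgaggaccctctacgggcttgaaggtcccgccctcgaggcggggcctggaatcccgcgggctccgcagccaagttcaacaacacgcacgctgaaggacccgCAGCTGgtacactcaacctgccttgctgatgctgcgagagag
Sox11: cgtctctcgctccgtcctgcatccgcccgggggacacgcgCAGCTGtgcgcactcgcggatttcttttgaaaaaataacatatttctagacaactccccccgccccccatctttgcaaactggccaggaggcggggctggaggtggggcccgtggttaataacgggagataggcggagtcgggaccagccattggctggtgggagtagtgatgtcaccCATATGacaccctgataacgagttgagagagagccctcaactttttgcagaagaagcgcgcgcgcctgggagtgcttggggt
Tcf3: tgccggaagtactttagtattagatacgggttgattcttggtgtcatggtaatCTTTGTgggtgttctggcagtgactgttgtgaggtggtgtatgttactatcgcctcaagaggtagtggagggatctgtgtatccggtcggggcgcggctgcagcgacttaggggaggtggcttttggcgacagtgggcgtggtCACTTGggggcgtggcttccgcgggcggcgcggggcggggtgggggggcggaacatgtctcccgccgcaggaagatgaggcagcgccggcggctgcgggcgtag
The promoters of Nfe2l3 and Sox11 hold 2 E-boxes each and those of Zfp488 and Tcf3 hold 1 each, and Tcf3 alone of these 4 holds ACAAAG. Over all 32851 promoters of the same length, 72.3% hold CANNTG and 18.7% hold ACAAAG, against 36 and 7 of the 48 members (75% and 14.6%). AGGTCA, a half-site of nuclear hormone receptors, lies in 6 of the 48 (12.5%) and in 16.3% of all promoters. GGGCGG, the GC box that Sp and Klf factors bind, lies in 37 of 48 members (77.1%) against 35.7% of all promoters, in 7 of 9 members higher and 7 of 8 lower in RNA-seq. These matches describe letters in a window and show no binding.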

How the data were processed

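RNA-seq and ribosome footprint libraries of 2 OPC and 2 oligodendrocyte cultures were used, grouped by their labels. Deposited values are FPKM per transcript: the authors clipped adapters, aligned reads with HISAT2 2.1.0 to GRCm38 and quantified canonical coding transcripts of Gencode vM9 with StringTie 1.3.5 and ballgown, over the whole transcript for RNA-seq and over the CDS for footprints. No filter on low values was named, and footprints were made with micrococcal nuclease. Ribosomes were held with emetine in the lysis buffer. FPKM carry no counts, so depth was estimated from the smallest steps between low values and no counting interval is given.

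Here log2(FPKM + 0.1) was fitted with limma 3.58.1 (R 4.3.3, trended variance) wherever the mean over the libraries fitted reached 1 FPKM, and p-values were two-sided and adjusted over all transcripts tested (Benjamini-Hochberg, 0.05). The change of ribosome density was the footprint change less the RNA-seq change, as an interaction term in 1 fit of 8 libraries. That fit has no term for the culture that 2 libraries share. A ratio per culture, fitted instead, called 0 of 53 members and 0 of 8056 transcripts. The fit was tested on simulated data, in which far fewer transcripts were changed than were called here in RNA-seq and footprints. There it missed all of the smallest changes put in and many of the larger ones. A change without a call is therefore not shown to be absent. Tables and figures were made with Python 3.11.15, pandas 2.3.3, numpy 2.4.6 and matplotlib 3.10.9. Coordinates, exons and codons came from Gencode vM21 (GRCm38), which held all 80 members, and promoters from RefSeq (GRCm38.p6). Besides the overlaps named with their genes, exons of Sox4, Sox21, Hes5, Klf3, Klf7, Pou2f1, Pax8, Pax9 and Sall4 overlap a gene on the opposite strand. Exons of Sox1 overlap Gm25239 and those of Pou2f2 overlap Mir6537 on the same strand. Per the methods, the oligodendrocytes came from the corresponding OPC replicates. That equal replicate numbers mark these pairs is an assumption made here, since the methods do not say so. Deviations from the group means of same-numbered samples had a Pearson r of 0.108 in RNA-seq and 0.0860 in footprints across transcripts. Alternatives were a pseudocount of 1, no minimum, a minimum of 5 FPKM, median-ratio scaling, no variance trend, the replicate block, a ratio per culture for ribosome density, and each culture left out. Genes named in any case were the central lineage regulators, and besides them the 6 other members with the largest rise and the 6 with the largest fall called in each readout and moving alike in both culture pairs, and the 3 most abundant members of each kind of sample. Other members are named to account for their families. The members and lists were chosen with earlier results of these data known. A few genes of the table are not reported here.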

Additional observations from a re-analysis of the deposited data

How the results depend on the processing

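With limma without the variance trend, the members called were 17 in RNA-seq, 14 in footprints and 1 (Nfe2l3) for ribosome density, in place of 30, 23 and 0. Over all transcripts, 24.9%, 12.4% and 0.174% were then called, in place of 33.2%, 23.6% and 0.0124%. Leaving out each culture in turn gave 6 to 21 members in RNA-seq, 0 to 29 in footprints and 0 to 6 for ribosome density. For ribosome density, members were called only without oligodendrocyte culture 1, where calls rose over all transcripts too. In RNA-seq and footprints as well, calls over all transcripts moved in the same direction as the member counts in each of these fits. The range of member counts therefore cannot be read as particular to the members. In such fits the lone remaining sample is assumed to vary like the other group. With the replicate number as a block (same-numbered cultures taken as pairs), 35, 21 and 0 members were called, and no other call changed than those given above. The shares of all transcripts called with the block were 39.8%, 20.8% and 0.0124%. A pseudocount of 1 FPKM, no minimum, a minimum of 5 FPKM and median-ratio scaling gave 30 to 32 members in RNA-seq and 21 to 26 in footprints. These settings called 23.7% to 41.2% of all transcripts in RNA-seq and 18.8% to 29.3% in footprints. Of the calls, 17 of 30 in RNA-seq and 11 of 23 in footprints passed under every alternative with all libraries. In both readouts these were Hes1, Klf16, Myrf, Nfe2l3, Pou3f1, Sox8, Sox10, Sox11, Zeb2 and Zfp488. Klf13 passed in footprints besides, and Klf3, Lhx2, Nfia, Nfib, Sox1, Tcf3 and Tcf19 in RNA-seq. Every other call was lost in at least 1 of these alternatives, and loss without the variance trend is not marked beside each gene above. No called member changed sign under any alternative. Of the members not called, 12 of 26 in RNA-seq and 16 of 37 in footprints changed sign when 1 culture was left out, and 5 in RNA-seq did with median-ratio scaling. For the genes named by the rule, the log2 changes were as follows. In RNA-seq, Egr1 ranged from -1.14 (without OPC 1; -0.91 without oligodendrocyte 2) to 2.26 (without OPC 2), Hes7 from -14.7 (without oligodendrocyte 1) to 0.39 (without oligodendrocyte 2), Nkx6-2 from -1.32 (without OPC 2) to 3.76 (without oligodendrocyte 2) and Sox9 from -0.052 (without OPC 2) to 0.61 (without OPC 1). In footprints, Egr1 ranged from -2.09 (without OPC 1) to 0.29 (without OPC 2) and Sox9 from -0.35 (without OPC 2) to 0.17 (without OPC 1; 0.024 without oligodendrocyte 2). Between leaving out oligodendrocyte 1 and oligodendrocyte 2, Hes5 went from -1.21 to 1.33 (-1.09 without OPC 2), Nfe2l1 from 0.021 to -0.40, Nkx6-2 from -0.052 to 2.72, Olig1 from -0.14 to 0.34 (-0.11 without OPC 2) and Sox3 from -0.33 to 0.49. The cause of these shifts was not tested. Values of 0 in the shallowest libraries limit the low members.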

Other observations

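Hes7, a bHLH repressor of the Hes family, was listed at 2396 and 3162 FPKM in OPC RNA-seq and at 3605 and 0 FPKM in oligodendrocytes, and at 0 in all 4 footprint libraries. Of the 9 transcripts above 1000 FPKM in those 3 RNA-seq libraries, Hes7 was the 1 at 0 in every footprint library and the 1 at 0 in the second oligodendrocyte RNA-seq library. Its exons (chr11:69120404-69124055 in GRCm38, plus strand) overlap 9130213A22Rik on the opposite strand. Strand was not named in the counting, so the listed FPKM do not show which of these genes the reads came from.

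Of 13 immediate early genes listed, 10 were higher in the second culture of both cell types in RNA-seq, 5 of them (Egr1, Egr2, Fos, Fosb and Fosl2) by over 3 times in each. Arc, Egr4 and Ier3 went opposite ways in the cell types, and Btg2 (1.14 and 1.28) and Ier5 (1.3 and 1.22) differed little. The second culture over the first was 10.9 in OPCs and 7.78 in oligodendrocytes for Egr1, 13.1 and 7.68 for Egr2, and 5.50 and 3.73 for Fos. In footprints the ratios were 5.24 and 2.18 for Egr1 and 1.57 and 0.603 for Fos. Footprints of Egr1 and Egr2 were higher in the second culture of both cell types. Those of Atf3, Btg2, Fosl2, Ier5 and Jun were lower in both (0.703 and 0.851 for Jun), so footprints did not share the RNA-seq order. The share of all transcripts with that RNA-seq order was not determined. Hes5 had the opposite order, with ratios of 0.392 and 0.752 in RNA-seq and 0.20 and 0.171 in footprints. Egr1, Egr2, Fos and Hes5 were chosen after their values were seen.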
